A study of Mus musculus with 6 samples.

Results

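Patterning homeobox and T-box factors outside the Hox clusters were compared between the mouse malignant mesothelioma lines AC29 and AB1. The members were all genes of the Dlx, Emx, Irx, Isl, Lhx, Meis, Meox, Msx, Nkx, Otx, Pax, Pbx, Pitx, Tgif and Tbx families, and Six2 to Six6, that the platform annotation named singly, which gave 78 of the 18193 genes on the array. Each gene was read from whichever of its probe sets was brightest on average across the 6 arrays, and the members had 137 probe sets in all. AB1 is of the BALB/c strain and was used at passage 40, and AC29 is of the CBA strain and was used at passage 60. The labels give both strains as female and 6 to 8 weeks old. Both are asbestos-induced tumours of the lining of the body cavities, each represented by a single established line. No treatment, transgene or deletion is named for either line. RNA came from 3 flasks of each line at 80% confluency, with 1 array per flask, so p-values measure the spread between flasks. Line, strain and passage coincide and cannot be told apart.

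Homeobox genes encode transcription factors with a DNA-binding homeodomain, and T-box genes encode factors with a DNA-binding T-domain. In the embryo they mark out position along the body axes, limbs, head and organs, and many are switched off or kept to restricted cell types in the adult. Meis, Pbx, Tgif and Irx proteins belong to the TALE class, whose Meis and Pbx members bind DNA together with Hox and other homeodomain proteins. Mesothelium itself arises from the coelomic lining of the embryo, which also gives rise to the epicardium and to the surface of the gonad, and several T-box, LIM and Emx factors are known from those tissues.

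The values were log2 RMA intensities, in which background is corrected, arrays are put on a common scale and the probes of a set are summarised. The median per array lay between 5.76 and 5.81, and Pearson's r across genes was 0.997 to 0.998 within AB1, 0.995 to 0.997 within AC29 and 0.937 to 0.938 between the lines. AC29 replicate 14 stood apart on the second principal component, which held 2.86% of the variance, and it gave the lowest value of its line for 43 of the 78 members. A floor of 6.07 was set at the 95th percentile of 86 probe sets for olfactory, vomeronasal and taste receptors, and their 99th percentile was 7.23. Where no array of a line exceeded the floor, a fold is given as a lower bound against the floor. The call rule asked for an adjusted p under 0.05 in limma (Benjamini-Hochberg over 18193 genes) together with a difference of 2-fold or more. In bulk RNA, fewer cells with a transcript and less transcript per cell cannot be told apart.

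The 14 mesothelial markers were all above the floor on the 3 AC29 arrays, and 5 of them were above it on the 3 AB1 arrays. Their mean log2 value over the list was 10.84 to 10.98 on the AC29 arrays and 6.59 to 6.65 on the AB1 arrays. Lists for other cells were above the floor in part. All 3 arrays of a line exceeded it for 3 of 8 macrophage genes and 3 of 7 lymphocyte genes in each line, for 1 of 8 endothelial genes in AB1 and 2 in AC29, and for 3 of 10 neural genes in AB1 and 5 in AC29. The macrophage gene Cd14 (9.02 in AB1, 7.26 in AC29), the endothelial gene Esam (6.17 and 10.59) and the neural gene Map2 (3.33 and 6.58) passed the call rule. The neural gene Tubb3 went the other way from Map2 (8.42 in AB1, 7.53 in AC29) and did not reach 2-fold. Csf1r, Cd3e, Cd4, Cd8a, Kdr, Rbfox3 and Sox10 exceeded the floor on all 6 arrays, whereas Ptprc, Adgre1, Pecam1, Cdh5, Cd79a and Snap25 were at or under it on all 6. In the muscle list, 5 of 10 genes were above the floor in each line, with Actg2 higher in AB1 (9.45 and 5.69), Cnn1 higher in AC29 (6.19 and 7.80) and Myod1 under the floor. The fibroblast list of 10 genes averaged 8.15 to 8.26 in AB1 and 8.60 to 8.78 in AC29, and its genes differed in both directions. Dcn (5.98 and 12.81), Col1a1 (11.43 and 13.12) and Lum (4.46 and 6.00) passed toward AC29, and Pdgfrb (9.11 and 4.96) toward AB1. The part of these marker differences in the results below was not tested.

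Of the 78 members, 11 passed the call rule, with 5 higher in AC29 and 6 higher in AB1. This is 14.1% of the members, against 10.9% of all genes (5.12% higher in AC29 and 5.82% higher in AB1). The share of members was thus near the background when genes at or under the floor were counted. Of the 42 members above the floor on at least 1 array, 11 were called, or 26.2%. With all genes filtered in the same way, 894 of 11647 passed toward AC29 and 1013 toward AB1. Together these are a smaller share than that of the 42 members, and the shares were not compared by a test. The members higher in AC29 were Irx2, Dlx4, Dlx2, Pitx1 and Otx1, and those higher in AB1 were Emx2, Tbx3, Pax6, Irx3, Tgif1 and Meis1. By the adjusted p alone, 19 of the 78 members passed, against 40.3% of all genes. For 29 members, or 37.2%, all arrays of a line lay on the same side of the other line's arrays, against 50.1% of all genes. The median difference was -0.04 over the members and -0.00474 over all genes on the log2 scale, and the median absolute difference was 0.146 against 0.196. These comparisons also count genes at or under the floor. Among the 42 members above it on at least 1 array, 19 passed by the adjusted p alone and 59.5% had arrays without overlap. Their median absolute difference was 0.251, and the matching values for all genes above the floor are not given here. Standard errors of the members' differences ran from 0.0794 to 0.175.

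**Figure D1:**
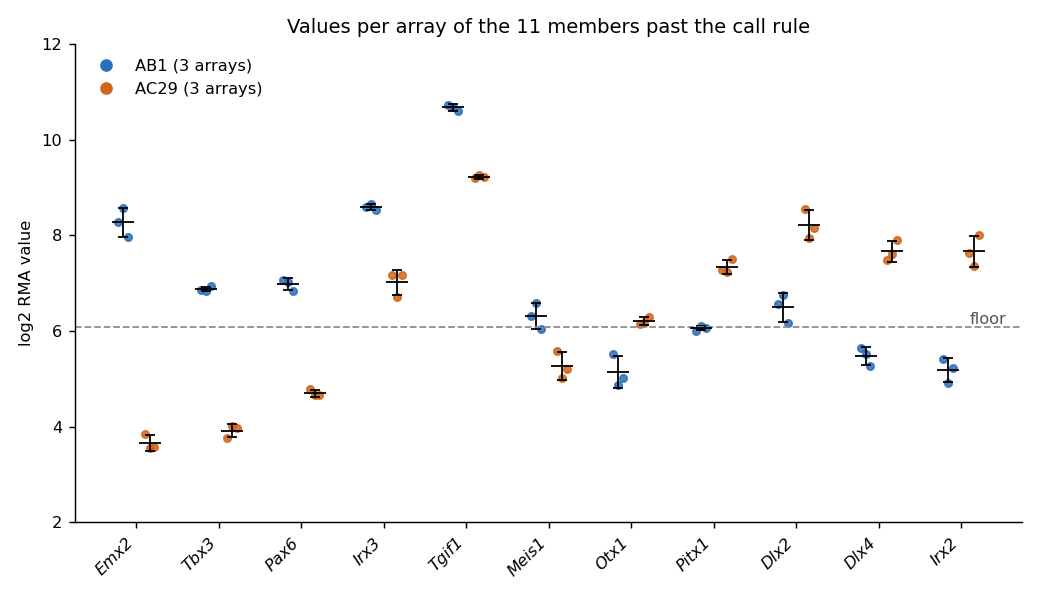
Log2 RMA value on each array (points), with the mean and SD of 3 arrays (black), for the 11 members past the call rule, ordered from the largest difference toward AB1 to the largest toward AC29; the dashed line is the floor of 6.07. In every gene shown the AB1 and AC29 points are separate, and values of different genes come from different probe sets and are not to be compared.

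Many members gave no signal above background in either line. All 6 arrays were at or under the floor for 36 of the 78, and the differences of these 36 ran from -0.24 to 0.21. They include the neural and eye factors Lhx2 and Otx2, the thyroid and lung factor Nkx2-1, the muscle and neural crest factors Pax3 and Pax7, the B-cell factor Pax5, the thyroid and kidney factor Pax8, the jaw and bone factors Dlx5 and Dlx6, and the T-cell factor Tbx21. A further 25 members exceeded the floor on all 6 arrays, and 9 of these, Irx5, Meis2, Nkx2-6, Nkx2-9, Pbx2, Six4, Tbx15, Tbx18 and Tgif1, exceeded 7.23 on all 6. The remaining 17 exceeded the floor on some arrays. No fold is given for a member at or under the floor in both lines.

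**Figure D2:**
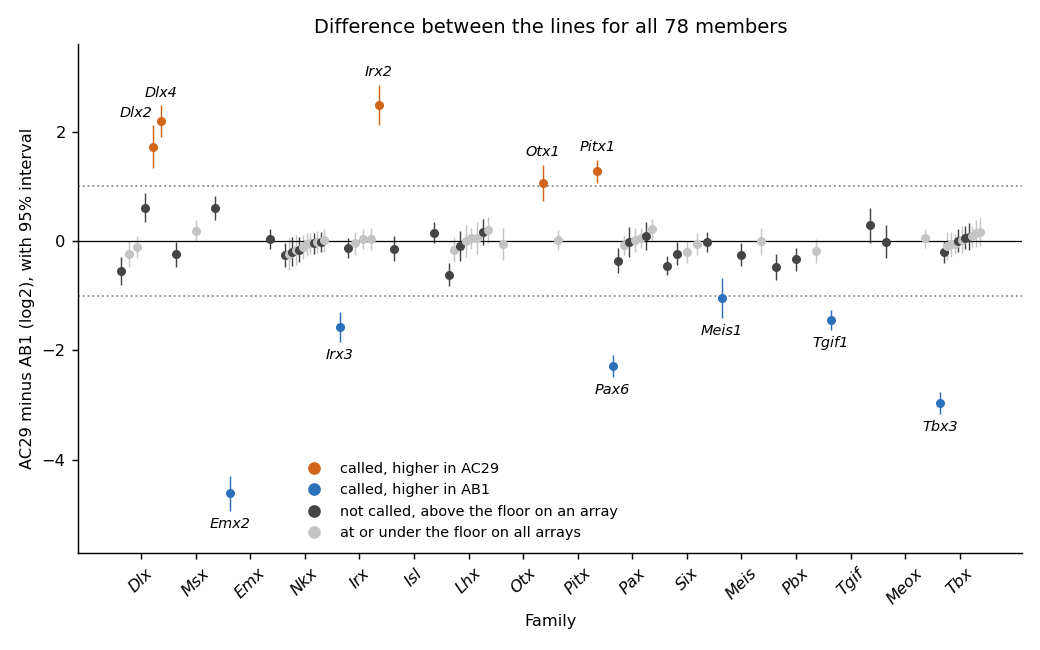
Difference between the lines (AC29 minus AB1, log2) for all 78 members with the 95% interval from limma, grouped by family; dotted lines mark a 2-fold difference. The 5 members called toward AC29 lie between 1.07 and 2.48, the 6 called toward AB1 between -4.61 and -1.05, and the other members differ by at most 0.61 in either direction.

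Promoter sequences are shown for the 2 members with the largest differences in each direction among the called members that have an entry in the RefSeq promoter table, which held 58 of the 78 members and 7 of the 11 called. Each is the 250 bases before the most upstream listed start, 5′ to 3′ on the strand of the gene, in build GRCm38.p6. Capitals mark matches, on either strand, to GGGCGG, the core of Sp1 sites, and to CCAAT. Emx2 (chr19:59458440-59458689, plus strand) and Pax6 (chr2:105668646-105668895, plus strand) were higher in AB1, and Dlx2 (chr2:71546755-71547004, minus strand) and Irx2 (chr13:72628570-72628819, plus strand) were higher in AC29.
Emx2: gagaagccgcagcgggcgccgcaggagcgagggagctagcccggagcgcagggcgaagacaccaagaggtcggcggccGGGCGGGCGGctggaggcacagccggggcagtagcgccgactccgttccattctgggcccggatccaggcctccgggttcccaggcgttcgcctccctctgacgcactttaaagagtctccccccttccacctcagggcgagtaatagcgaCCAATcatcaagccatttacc
Pax6: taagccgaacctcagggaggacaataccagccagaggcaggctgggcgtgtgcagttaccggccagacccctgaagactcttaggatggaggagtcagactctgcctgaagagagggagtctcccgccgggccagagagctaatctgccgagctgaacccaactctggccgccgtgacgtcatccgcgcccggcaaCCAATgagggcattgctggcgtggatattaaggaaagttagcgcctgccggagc
Dlx2: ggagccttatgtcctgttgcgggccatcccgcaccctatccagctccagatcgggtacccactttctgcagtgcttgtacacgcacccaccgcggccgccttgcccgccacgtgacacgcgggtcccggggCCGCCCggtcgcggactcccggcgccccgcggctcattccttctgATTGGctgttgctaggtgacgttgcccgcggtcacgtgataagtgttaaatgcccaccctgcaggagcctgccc
Irx2: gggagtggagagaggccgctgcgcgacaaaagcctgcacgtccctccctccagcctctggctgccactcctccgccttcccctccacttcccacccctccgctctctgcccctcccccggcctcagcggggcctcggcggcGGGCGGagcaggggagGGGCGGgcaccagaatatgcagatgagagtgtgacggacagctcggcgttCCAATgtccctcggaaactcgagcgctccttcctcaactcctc

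All 4 windows hold CCAAT on the plus or minus strand, at 21 bases before the start in Emx2, 54 in Pax6, 74 in Dlx2 and 43 in Irx2. The motif was found in 46.6% of the 58 member promoters and in 34.5% of 27025 promoters of the same length. GGGCGG was found in 62.1% of the member promoters and in 33.0% of all promoters. The homeodomain core TAATTA, the Meis and Tgif core TGACAG, the T-box core GGTGTGA and TATAAA were searched on both strands as well. They were found in 6.90%, 15.5%, 0% and 12.1% of the member promoters and in 4.91%, 15.9%, 3.31% and 13.0% of all promoters, and in none of the 4 windows shown. GGGCGG and CCAAT share no bases in these windows. The member promoters had a median GC content of 61.6% and a median of 14.5 CpG sites in 250 bases, against 52.0% and 6.0 over all promoters. The 7 called members had 13 to 24 CpG sites (median 15.0), and the 51 members not called had 1 to 33 (median 14.0).

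Dlx and Msx factors act in the forebrain, face, teeth, limbs and placenta. In the Dlx family 2 of 6 members were called, both higher in AC29. Dlx2, a factor of forebrain interneurons and the facial skeleton, read 6.57, 6.75 and 6.16 on the AB1 arrays and 8.55, 7.94 and 8.15 on the AC29 arrays. All AC29 values were above all AB1 values, and the difference was 1.72 ± 0.17 (log2, SE from limma; 3.30-fold, adjusted p = 1.74e-05). Dlx4, known from placenta and branchial arches, read 5.64, 5.51 and 5.28 in AB1, under the floor, and 7.48, 7.62 and 7.91 in AC29. The fold toward AC29 was at least 3.02 (adjusted p = 2.70e-07), and its other probe set, at 5.66 in AB1 and 6.91 in AC29, was also past the rule.

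The genome partners of these genes gave smaller differences. Dlx1, which lies beside Dlx2 and acts with it in the forebrain, read 7.24, 7.41 and 7.24 in AB1 and 6.81, 6.91 and 6.51 in AC29. It was thus lower in AC29, by 0.55 on the log2 scale (adjusted p = 0.00254), where Dlx2 was higher. Dlx3, a factor of epidermis, hair and placenta beside Dlx4, was higher in AC29 by 0.61 (adjusted p = 0.00201) with its chosen probe set. Its other probe set read 5.44 in AB1 and 6.71 in AC29 and passed the rule with a difference of 1.27. Msx1, a factor of tooth and limb that responds to bone morphogenetic proteins, was higher in AC29 by 0.61 (6.32 ± 0.13 against 6.93 ± 0.10, SD, n = 3, adjusted p = 0.000487), under the 2-fold minimum. A second Msx1 probe set above the floor differed by 0.02. Msx3 averaged 6.85 in AB1 against 6.61 in AC29 (adjusted p = 0.0877).

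Emx2, which is needed for the cerebral cortex and for the urogenital tract, had the largest difference of any member. Its values were 8.28, 8.57 and 7.96 in AB1 and 3.84, 3.56 and 3.58 in AC29. Every AB1 array was above the floor and every AC29 array was under it. The difference was -4.61 ± 0.15 (log2), at least a 4.59-fold difference against the floor (adjusted p = 2.18e-09). Emx1, the other cortical Emx factor, read 7.26 ± 0.03 in AB1 and 7.29 ± 0.07 in AC29 (SD, n = 3), with an interval of the difference from -0.15 to 0.21. Its second probe set was under the floor on all arrays.

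None of the 12 Nkx genes passed an adjusted p under 0.05 in limma, and 1 of them, Nkx2-5, had an unadjusted p under 0.05. These factors act in thyroid, lung, heart, pancreas and spinal cord. The heart factor Nkx2-5 read 6.82, 6.62 and 6.61 in AB1 and 6.45, 6.53 and 6.31 in AC29, without overlap, and missed the threshold (adjusted p = 0.0594). Nkx2-6 and Nkx2-9 exceeded 7.23 on all arrays, at 7.67 and 7.93 in AB1 and 7.66 and 7.89 in AC29. The intervals of their differences were -0.20 to 0.17 and -0.23 to 0.16. A second Nkx2-6 probe set averaged 5.90 in AB1 and 5.88 in AC29 and exceeded the floor on 1 array. Nkx2-3 and Nkx2-4 lay closer to the floor and differed by -0.16 and -0.20 (adjusted p = 0.257 and 0.229). The 7 others, among them Nkx2-1 and Nkx6-1, were at or under the floor on all arrays.

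The Irx genes, which act in heart, limb and neural patterning, lie in 2 genomic groups, and 1 member of each was called. Irx2 read 5.41, 4.91 and 5.23 in AB1 and 7.64, 7.36 and 8.00 in AC29. It was above the floor in AC29 alone and at least 3.02-fold higher there (difference 2.48 ± 0.17, adjusted p = 7.12e-07). Its neighbours Irx1 and Irx4 were under the floor on all arrays. Irx3 went the other way, with 8.59, 8.65 and 8.52 in AB1 and 7.17, 6.71 and 7.17 in AC29. It was above the floor in both lines and 2.98-fold higher in AB1 (difference -1.57 ± 0.13, adjusted p = 2.77e-06). Irx5, which lies beside Irx3 and acts with it in heart and limb, read 8.22 ± 0.06 in AB1 and 8.10 ± 0.08 in AC29, with an interval of the difference from -0.32 to 0.06. Irx6, the third of that group, was under the floor throughout.

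No LIM homeobox gene was called by its chosen probe set, but Lhx9 differed widely on others. Lhx9 is known from the coelomic epithelium and the early gonad. Its chosen probe set read 6.49, 6.33 and 6.44 in AB1 and 5.64, 5.90 and 5.89 in AC29, a difference of -0.61 ± 0.10 (adjusted p = 0.000483). Of its 3 other probe sets, 2 passed the rule toward AB1. The first read 7.50, 7.65 and 7.38 in AB1 and 3.95, 3.72 and 4.03 in AC29, a difference of -3.61, and the second differed by -2.60 (6.33 against 3.73). In both, AB1 was above the floor and AC29 under it on every array. With the mean of its probe sets Lhx9 was called at -1.83 (adjusted p = 5.99e-08). The motor neuron factors Isl1 and Isl2 lay near the floor at 6.12 and 6.43 in AB1 and 6.27 and 6.29 in AC29 (adjusted p = 0.207 and 0.333). Lhx4 was above the floor on 1 AB1 array and 2 AC29 arrays, and Lhx6 on 3 AB1 arrays and 1 AC29 array. Lhx4 and Lhx6 differed by 0.17 and -0.09 (adjusted p = 0.268 and 0.634).

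Otx and Pitx factors pattern the head, pituitary and hindlimb. Pitx1, which gives the hindlimb its identity, read 6.01, 6.10 and 6.07 in AB1, around the floor, and 7.27, 7.24 and 7.50 in AC29. The difference was 1.27 ± 0.09 (2.42-fold, adjusted p = 1.55e-06), and its second probe set differed by 1.59 in the same direction. The call was lost when limma tested against a 2-fold difference (adjusted p = 0.105). Otx1, a factor of cortex and sense organs, read 5.51, 4.88 and 5.02 in AB1 and 6.14, 6.17 and 6.30 in AC29. The AC29 values lay just above the floor, so that the lower bound of the fold was 1.09. Its difference of 1.07 ± 0.15 (adjusted p = 0.000175) was under the 2-fold minimum without AB1 replicate 5 (0.94) and was not past the test against a 2-fold difference (adjusted p = 1). Otx2 and Pitx3 were under the floor on all arrays.

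Of 8 Pax genes, Pax6 was called. Pax6, the factor of eye, pancreas and forebrain, read 7.07, 7.03 and 6.84 in AB1 and 4.78, 4.66 and 4.66 in AC29. The AB1 arrays were above the floor and the AC29 arrays under it, and the difference was -2.28 ± 0.09 (at least 1.88-fold, adjusted p = 1.28e-08). Its 4 other probe sets were under the floor on all arrays, and 1 of them passed the rule toward AB1 (-1.37). On the mean of all 5 the difference was -0.79, under the 2-fold minimum (adjusted p = 8.91e-06). Pax9, a factor of thymus, teeth and vertebrae, was lower in AC29 by less than 2-fold (6.58 ± 0.04 against 6.22 ± 0.18, SD, n = 3; difference -0.36, adjusted p = 0.0153).

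Six2 to Six6 encode homeodomain proteins that act in muscle, kidney, eye and sense organs, some of them with Eya proteins. None of the 5 passed the call rule in limma, while 1 passed the adjusted p alone and 3 had an unadjusted p under 0.05. Six4 was above the floor on all arrays, with 8.15, 8.19 and 8.20 in AB1 and 7.78, 7.66 and 7.75 in AC29. It was lower in AC29 on every array, by 0.45 (adjusted p = 0.00101), and a pair of further Six4 probe sets, also bright, gave -0.89 and -0.81. Six2, the factor of nephron progenitors, read 6.78 and 6.77, with an interval of the difference from -0.19 to 0.17. Six5 read 6.68 in AB1 and 6.44 in AC29 (adjusted p = 0.0733).

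Of the 8 Meis, Pbx and Tgif genes, 2 were called, both higher in AB1. Tgif1, a corepressor that acts on Smad and retinoid signalling, read 10.73, 10.69 and 10.60 in AB1 and 9.19, 9.26 and 9.21 in AC29. It was above 7.23 in both lines, and it was 2.73-fold higher in AB1 (difference -1.45 ± 0.08, adjusted p = 1.83e-07). Tgif2, its paralogue, read 7.33, 7.17 and 7.14 in AB1 and 7.79, 7.17 and 7.54 in AC29; the lines overlapped and it did not pass (adjusted p = 0.144). Meis1, known from blood stem cells and the proximal limb, read 6.31, 6.59 and 6.04 in AB1 and 5.57, 5.01 and 5.21 in AC29. It was above the floor on 2 AB1 arrays and on no AC29 array, and the lower bound of its fold was 1.18. Its difference of -1.05 ± 0.16 (adjusted p = 0.000413) was the smallest among the called members. It did not reach 2-fold without AB1 replicate 5 (-0.91), without AC29 replicate 14 (-0.92) and on the mean of its probe sets (-0.36), and it was not past the test against a 2-fold difference (adjusted p = 1).

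Of the other Meis, Pbx and Tgif genes, Meis2, Pbx2, Pbx3 and Tgif2 were above the floor on all arrays. Meis2, which acts in limb, heart and face, read 9.22, 9.31 and 9.24 in AB1 and 9.17, 8.86 and 8.997 in AC29. It was lower on each AC29 array by its chosen probe set, with an adjusted p of 0.0653, and the next 2 in brightness gave -0.38 and -0.60 (adjusted p = 0.0204 and 0.0167 in limma over all single-symbol probe sets). Pbx2 and Pbx3, partners of Meis and Hox proteins, were lower in AC29 by 0.33 and 0.48 (adjusted p = 0.0148 and 0.00404), both under the 2-fold minimum. The second probe set of Pbx3 differed by -0.93, while the other 2 of Pbx2 differed by -0.12 and 0.06. Meis3 and Pbx4 were under the floor on all arrays.

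Of the 12 T-box genes, Tbx3 was called. Tbx3 is a repressor of transcription that acts in limb, breast and heart development. It read 6.86, 6.84 and 6.93 in AB1 and 3.76, 4.01 and 3.98 in AC29. The AB1 arrays were all above the floor and the AC29 arrays all under it, and the difference was -2.96 ± 0.09 (at least 1.74-fold, adjusted p = 1.96e-09). A second probe set read 6.39 in AB1 and 3.68 in AC29 (difference -2.72), and the other 3 were under the floor on all arrays. Without any of the AB1 arrays the brightest average passed to a dim probe set, with differences of -0.14, -0.17 and -0.07. With the probe set kept, the difference was -3.00 to -2.88 whichever array was left out. Tbx5, its neighbour and the forelimb and heart factor, lay at the floor in both lines (6.07 and 6.13).

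Tbx18 and Tbx15 were above 7.23 on all arrays of both lines. Tbx18, a factor of epicardium and ureter mesenchyme, read 8.45, 8.48 and 8.51 in AB1 and 8.38, 8.12 and 8.33 in AC29. Its AC29 values were all below its AB1 values, but the difference of -0.20 did not pass (interval -0.41 to 0.00374, adjusted p = 0.115), and its second probe set differed by 0.15. Tbx15, a factor of skeleton and skin, read 7.48 ± 0.10 and 7.56 ± 0.21, with overlapping arrays. In the same family 7 genes, including Tbx1, Tbx2, Tbx4 and Tbx21, were under the floor on all arrays. The genes of somites Meox1 and Meox2 differed by -0.02 and 0.05.

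Of the 11 called members, 5 had 12 other probe sets. Of these 12, 4 passed the rule, 1 each for Dlx4, Pitx1, Tbx3 and Pax6, in the direction of the call. The other 8 did not pass it and differed by -0.51 to 0.21, among them both of Meis1 (-0.03 and -0.01). Of the 47 other probe sets of 34 members that were not called, 4 passed the rule, 2 for Lhx9, 1 for Dlx3 and 1, under the floor, for Pax9. Probe sets of a gene share the arrays and are not replicates of the comparison.

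**Figure D3:**
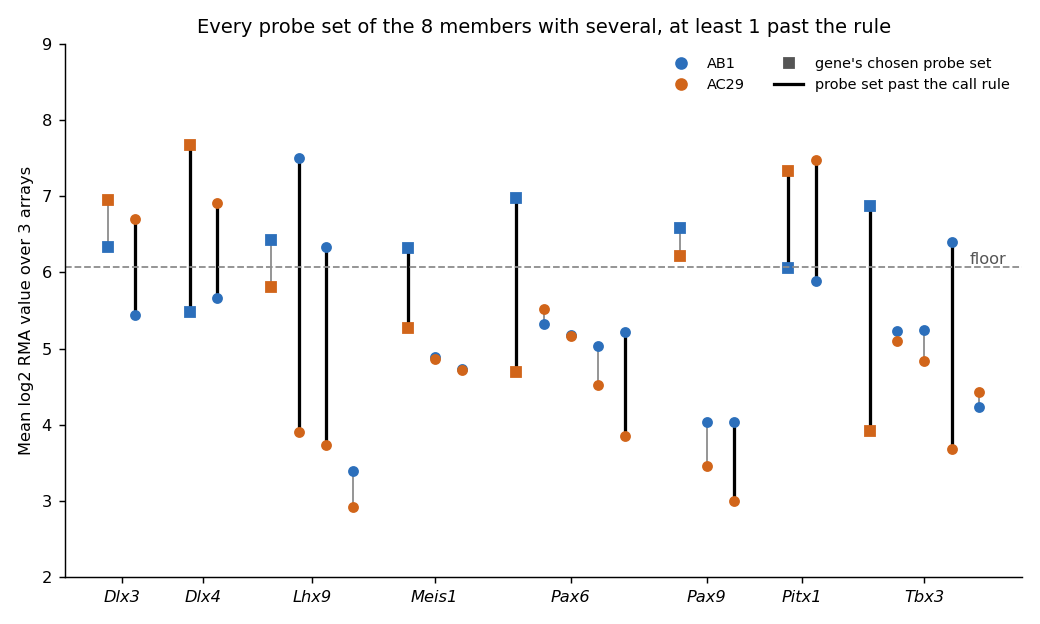
Mean log2 RMA value over 3 arrays in AB1 and AC29 for every probe set of the 8 members with several probe sets of which at least 1 passed the rule; a vertical line joins the means of both cell lines for a probe set, thick and black where it passed the rule, squares mark the chosen probe set and the dashed line is the floor of 6.07. For Lhx9 the chosen probe set differs by -0.61 and 2 others by -3.61 and -2.60, and for Tbx3 and Pax6 most of the other probe sets lie under the floor in both lines.

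In RefSeq's order of genes, 29 of the 78 members started within 1 Mb of the next member on the same chromosome, forming 12 groups. Of these 29 members, 5 were called, against 10.9% of all genes, and they lay in 5 different groups: Dlx4 with Dlx3, Irx2 with Irx1 and Irx4, Dlx2 with Dlx1, Tbx3 with Tbx5 and Lhx5, and Irx3 with Irx5 and Irx6. In these 5 groups, the called gene and a neighbour were both above the floor on all arrays for Dlx2 with Dlx1, at 1.72 and -0.55, and for Irx3 with Irx5, at -1.57 and -0.13. The differences between neighbours were not tested.

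**Figure D4:**
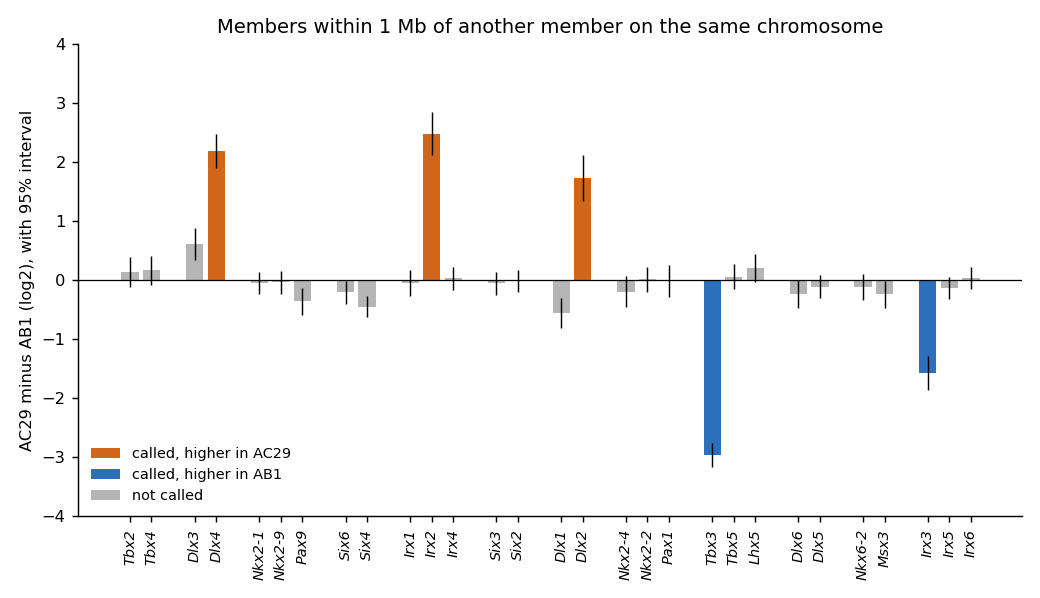
Difference between the lines (AC29 minus AB1, log2) with the 95% interval for the 29 members that start within 1 Mb of another member, in genomic order within each of the 12 groups. Coloured bars passed the call rule, and none of the 12 groups has more than 1 of them.

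The nearest measured protein-coding genes on either side of the 11 called members, 22 in all, included 4 called genes, against 10.9% of all genes. Of these, 2 shared the direction of the member. Ehbp1, an endocytic adaptor beside Otx1, was 3.76-fold higher in AC29, and Rab11fip2, a vesicle recycling factor beside Emx2, was 2.86-fold higher in AB1. The other 2 went against it: the integrin chain Itga6, beside Dlx2, was 2.46-fold higher in AB1, and Etaa1, a replication stress factor beside Meis1, was 2.22-fold higher in AC29. Rab11fip2 and Etaa1 were under the 2-fold minimum on the mean of their probe sets (-0.85 and 0.85). In the test against a 2-fold difference the calls of Itga6 (adjusted p = 0.335) and Etaa1 (adjusted p = 1) were lost. The genes on either side of Pax6, Rcn1 and Elp4, were higher in AC29 by 0.69 and 0.31 (adjusted p = 0.00197 and 0.0499), against -2.28 for Pax6. Fto, beside Irx3, differed by 0.15.

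Of 15 cofactor genes of the Eya, Dach, Ldb, Lmo and Ssbp families, 1 was called toward AC29 and 1 toward AB1, or 13.3%, against 10.9% of all genes. Eya1, a phosphatase and transcriptional coactivator, read 5.78, 5.52 and 5.06 in AB1 and 6.54, 6.39 and 6.60 in AC29, with a lower bound of 1.35-fold. Its call was lost without AB1 replicate 6 when the probe set was kept (difference 0.86), and in the test against a 2-fold difference (adjusted p = 1). Lmo1, a LIM-only protein that competes for LIM cofactors, was at least 1.91-fold higher in AB1 (7.005 ± 0.04 against 5.35 ± 0.32, SD, n = 3, adjusted p = 4.45e-06), while Lmo4 read 9.97 and 9.84 and did not pass. Of 12 corepressors, 2 were called, both higher in AB1, or 16.7%, against 10.9% of all genes. They were Tle4, a Groucho protein (6.58 against 4.11, at least 1.42-fold), and Ctbp2 (10.65 ± 0.09 against 9.39 ± 0.22, 2.39-fold), whose call was lost in the test against a 2-fold difference (adjusted p = 0.293). Hdac2 read 11.20 and 11.02 and did not pass.

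Related factors outside the families differed in both directions. In a list of 3 TALE genes and the Pbx-binding protein Pbxip1, 1 of 4 genes was higher in AC29 and 1 higher in AB1. Mkx, a tendon factor, read 3.50, 3.50 and 3.68 in AB1 and 7.25, 6.53 and 6.95 in AC29, at least 1.79-fold. Pknox2, a Meis relative that binds Pbx, was at least 1.81-fold higher in AB1, and on the mean of its probe sets its difference was -0.95, under the 2-fold minimum. Pknox1 read 8.12 and 8.47, a difference of 0.35 under the 2-fold minimum. Of 46 other homeobox genes, 1 passed toward AC29 and 7 toward AB1, or 17.4%, against 10.9% of all genes.

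The mesenchymal factors Prrx1 and Prrx2 were among the 7. Prrx1 read 10.76, 10.88 and 10.66 in AB1 and 8.01, 7.78 and 7.82 in AC29, a 7.43-fold difference (adjusted p = 3.01e-09), and Prrx2 was 4.20-fold higher in AB1. Zfhx3 was 4.42-fold higher in AB1, while its paralogue Zfhx4 was higher in AC29 by at least 2.00-fold (3.03 ± 0.15 against 7.07 ± 0.29, SD, n = 3). Cux1 read 9.49 and 8.80 and did not reach 2-fold. Of the 3 other T-box genes, Eomes, known from early mesoderm and lymphocytes, was 3.64-fold higher in AB1 (8.01 ± 0.10 against 6.15 ± 0.17), and Mga read 7.65 and 7.08, a difference under the 2-fold minimum. Of 33 Hox cluster genes, the DNA-binding partners of Meis and Pbx, 1 was called toward AC29 and 6 toward AB1, or 21.2%, against 10.9% of all genes. Named after their values were seen, Hoxb2 was the gene toward AC29 (6.41 against 7.57; adjusted p = 0.499 in the test against a 2-fold difference), and Hoxd10 (-4.54), Hoxa11 (-4.21) and Hoxd13 (-4.17) differed most toward AB1.

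**Figure D5:**
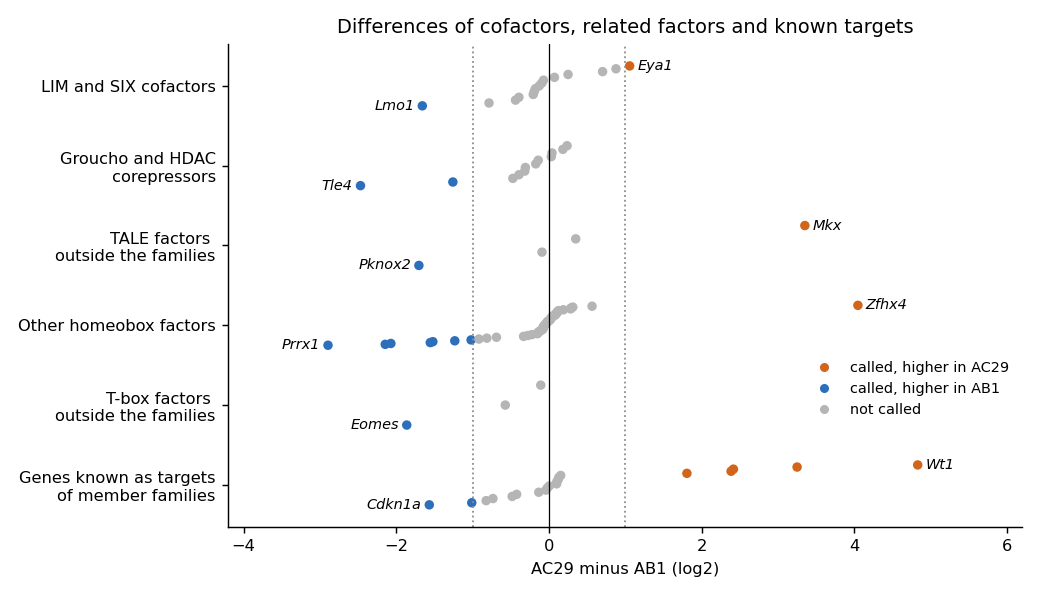
Difference between the lines (AC29 minus AB1, log2) for each measured gene of 6 lists of cofactors, related factors and known targets; dotted lines mark a 2-fold difference and the outermost called gene on each side is named. Other homeobox factors have 7 called genes toward AB1 and 1 toward AC29, and known targets have 2 and 5.

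Of 20 genes known from other tissues as targets of these families, 5 passed toward AC29 and 2 toward AB1, or 35.0%, against 10.9% of all genes. The list was chosen with earlier results of these data known, and whether the members act on these genes was not tested. For Wt1, which is also a mesothelial marker of the list above, the fold toward AC29 was at least 11.5, and for Sp7, a bone factor downstream of Dlx5, at least 3.82. Ezr read 9.71 in AB1 and 12.96 in AC29 and was 9.51-fold higher in AC29. The growth factors Bmp4 and Wnt4, named after their values were seen, were also among the 5, at 5.22-fold and 3.50-fold. Cdkn1a, a cell cycle inhibitor that T-box repressors can silence, was 2.96-fold higher in AB1. Fgf10 was at least 1.40-fold higher in AB1, and its difference of -1.01 did not reach 2-fold without AB1 replicate 4 (-0.988) or replicate 6 (-0.996), or without AC29 replicate 13 (-0.893) or replicate 14 (-0.948). Gja1, which Tbx2 and Tbx3 repress in the heart, read 13.23 and 12.75 and was lower in AC29 by less than 2-fold (adjusted p = 0.00221).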

How the data were processed

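Total RNA from 3 flasks of AB1 and 3 of AC29 (5 ug each) was measured on an Affymetrix array with 3′ probes, per the labels' protocols. The authors deposited log2 values of 45101 probe sets. Per the submitters' processing notes, the tools were RMA, GCOS and Partek 6.4, without their roles, and the log2 scale was read from these and from the range of values. RMA compresses dim and very bright values, so differences there can be understated. Genome build, scan batches and detection calls were not given in the sources used here. Control probe sets (64) were left out. Names came from the platform annotation: 34945 probe sets had 1 symbol, 932 several and 9160 none; all 78 members matched RefSeq by Entrez identifier.

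The fit was limma 3.58.1 (lmFit and eBayes, 2-sided) in R 4.3.3, with line as the only term, over 18193 genes; separate probe sets were adjusted over 34945. It was tested on simulated data. No depth applies to arrays; their number limits the precision. Errors after ± are the SD over 3 arrays for a mean and the SE from limma for a difference. Members and lists were chosen with earlier results of these data known. The named genes were the called members, members above the floor on at least 2 arrays of a line, the called and brightest genes of the partner lists (up to 3 per direction), and members nearest the 2-fold minimum; groups at the floor are named as examples, and the neighbours and Hox count were added after values were seen. Alternatives were another normalization, centring, probe set rule, filter on dim genes, variance model, test, threshold and floor, and leaving out each array.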

Additional observations from a re-analysis of the deposited data

How the results depend on the processing

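The counts of members higher in AC29 (5) and in AB1 (6) stayed within 1.5 times under quantile normalization, median centring, the mean of probe sets, leaving out probe sets ending in _x_at or _s_at, a filter on dim genes, eBayes with trend and robust settings, an unmoderated fit and a threshold of 0.01. When limma tested against a 2-fold difference, 3 members were called toward AC29 and 5 toward AB1, and 1273 genes in all in place of 1991. Leaving out each array gave 4 to 5 members toward AC29 and 4 to 6 toward AB1. With the floor at the 99th percentile, 9 members in place of 25 were above it on all arrays; with the 90th, 34 were. Of 798 recomputed differences of 38 members, 14 lost the call, those of Meis1, Otx1, Pax6, Pitx1 and Tbx3, 1 gained it (Lhx9) and 0 called differences changed sign. Keeping the probe sets while leaving out arrays was chosen after seeing the data. Across these settings, the largest median difference between the lines over all genes was -0.0241, with median centring, against -0.00474 in the main fit. No paired analysis was possible because the lines share no replicate numbers.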
